A study of Homo sapiens with 5 samples.

Results

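The genes of the AP-1 transcription factors were examined in SNU638 cells for peaks of BRG1, ACTL6A and NRF2. They were 10 of the 19689 protein-coding genes with an annotated transcription start site (TSS), namely FOS, FOSB, FOSL1, FOSL2, JUN, JUNB, JUND, ATF3, BATF and BATF3, and were chosen by name. For each gene, every peak over the gene and 50 kb to each side was taken from the 5 deposited peak lists. SNU638 is an established human gastric cancer cell line, and all libraries came from the same line, grown in medium with 10% serum and given no treatment. The assay was CUT&Tag, in which an antibody directs a transposase to cut the DNA near its target. There was 1 library each for anti-BRG1, anti-ACTL6A and anti-NRF2, and there were 2 for IgG, an antibody with no target in the nucleus. Since no antibody had a second library, the comparisons are descriptions without a test. The lists hold no RNA, so neither expression of these genes nor the identity of the line could be checked in them.

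AP-1 is a dimer of basic leucine zipper (bZIP) proteins. FOS proteins pair with JUN proteins, while JUN proteins can also pair with each other and with ATF3, BATF or BATF3, and the dimers bind TGANTCA, the AP-1 site, or the related TGACNTCA. FOS, JUN and several others are immediate-early genes, switched on within minutes by growth factors and stress through SRF at a CArG box and through the dimers themselves. BRG1 is an ATPase of the SWI/SNF chromatin remodelling complexes, ACTL6A is an actin-related subunit of those complexes, and NRF2 is a bZIP factor that pairs with small MAF proteins on the antioxidant response element (ARE), whose core is TGACNNNGC.

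Short stretches under the peaks show which of these sites lay in the members' own regulatory DNA. Positions are on GRCh38 and each sequence reads 5′ to 3′. The first 3 sequences are shown because they carry sites at the TSS of the members that answer first to serum or carry a full cAMP response element. In the 200 bp around the summit of the higher BRG1 peak at FOS (chr14:75278457-75278656, plus strand, 371 to 172 bp before the TSS), the CArG box is in capitals. In the 250 bp before the RefSeq start of JUN (chr1:58784048-58784297, minus strand, GRCh38.p14), the capitals mark TGACATCA, 67 bp before the start, which fits TGACNTCA. In the 250 bp before the RefSeq start of JUND (chr19:18281623-18281872, minus strand, GRCh38.p14), they mark TGACGTCA, 200 bp before the start, and matches to the ARE core on each side of it, 230 and 90 bp before the start.
FOS: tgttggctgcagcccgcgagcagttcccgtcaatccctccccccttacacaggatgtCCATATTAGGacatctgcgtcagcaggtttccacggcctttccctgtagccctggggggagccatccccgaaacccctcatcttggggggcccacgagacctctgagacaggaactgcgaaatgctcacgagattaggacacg
JUN: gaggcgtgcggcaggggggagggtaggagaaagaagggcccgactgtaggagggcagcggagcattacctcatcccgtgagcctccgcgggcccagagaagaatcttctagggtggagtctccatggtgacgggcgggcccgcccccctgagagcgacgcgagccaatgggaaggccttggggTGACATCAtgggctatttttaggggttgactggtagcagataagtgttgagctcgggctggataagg
JUND: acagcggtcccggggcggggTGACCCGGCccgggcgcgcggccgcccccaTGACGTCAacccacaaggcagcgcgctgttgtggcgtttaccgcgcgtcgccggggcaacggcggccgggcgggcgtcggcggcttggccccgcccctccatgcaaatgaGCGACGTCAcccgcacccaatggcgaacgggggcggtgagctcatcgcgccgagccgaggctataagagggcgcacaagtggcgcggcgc

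Sequences around the summits of 5 distal BRG1 peaks are shown, on the plus strand, because they hold the AP-1 site under peaks of 4 members. The site is in capitals in the peak 15.4 kb upstream of FOSL1 (chr11:65915708-65915907), where it is followed by GC so that it is also an ARE core, and in the peak 11.2 kb upstream of FOSL1 (chr11:65911526-65911725), where it occurs at 2 positions. It is in capitals likewise in the peak 12.1 kb upstream of FOSB (chr19:45455753-45455952), together with TGACATCA, and in the peak 12.2 kb upstream of ATF3 (chr1:212596411-212596610). In the peak 56.5 kb downstream of the JUN start (chr1:58727427-58727626) the capitals mark 2 AP-1 sites and an ARE core on the minus strand.
FOSL1 15.4 kb upstream: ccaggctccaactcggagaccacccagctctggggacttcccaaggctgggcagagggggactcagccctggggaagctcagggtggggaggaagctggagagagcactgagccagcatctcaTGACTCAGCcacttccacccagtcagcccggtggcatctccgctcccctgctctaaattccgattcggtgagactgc
FOSL1 11.2 kb upstream: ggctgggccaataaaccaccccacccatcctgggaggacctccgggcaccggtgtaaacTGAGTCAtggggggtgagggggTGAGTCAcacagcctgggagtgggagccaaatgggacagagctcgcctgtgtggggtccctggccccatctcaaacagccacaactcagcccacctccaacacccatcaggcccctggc
FOSB 12.1 kb upstream: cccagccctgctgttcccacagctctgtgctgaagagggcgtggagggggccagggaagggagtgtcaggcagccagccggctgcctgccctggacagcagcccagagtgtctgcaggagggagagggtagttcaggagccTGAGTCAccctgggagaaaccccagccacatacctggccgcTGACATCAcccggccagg
ATF3 12.2 kb upstream: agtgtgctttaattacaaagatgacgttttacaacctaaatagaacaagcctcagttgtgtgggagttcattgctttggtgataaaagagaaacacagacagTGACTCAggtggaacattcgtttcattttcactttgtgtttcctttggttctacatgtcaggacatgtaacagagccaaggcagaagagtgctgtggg
JUN 56.5 kb downstream: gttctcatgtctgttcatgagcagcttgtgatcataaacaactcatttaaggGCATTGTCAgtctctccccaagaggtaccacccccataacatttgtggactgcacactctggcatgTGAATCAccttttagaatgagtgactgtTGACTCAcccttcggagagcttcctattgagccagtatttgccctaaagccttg

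The windows of the 10 genes held 114 of the 48793 BRG1 peaks, 36 of the 23917 ACTL6A peaks and 19 of the 9045 NRF2 peaks. Neither IgG list, with 11 and 1746 peaks, had a peak in any of them. Peaks up to 1 kb from the first base of any protein-coding transcript were counted at a TSS, and all others as distal. By this measure 44 of the BRG1 peaks were at a TSS and 70 were distal, against 16 and 20 of the ACTL6A peaks and 10 and 9 of the NRF2 peaks. Of the 70 distal BRG1 peaks, 52 were also over 1 kb from the start of every other annotated transcript, non-coding ones included. The plot of peak positions shows all of them. The windows of ATF3 and BATF3 overlap, and their shared peaks were counted once.

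**Figure D1:**
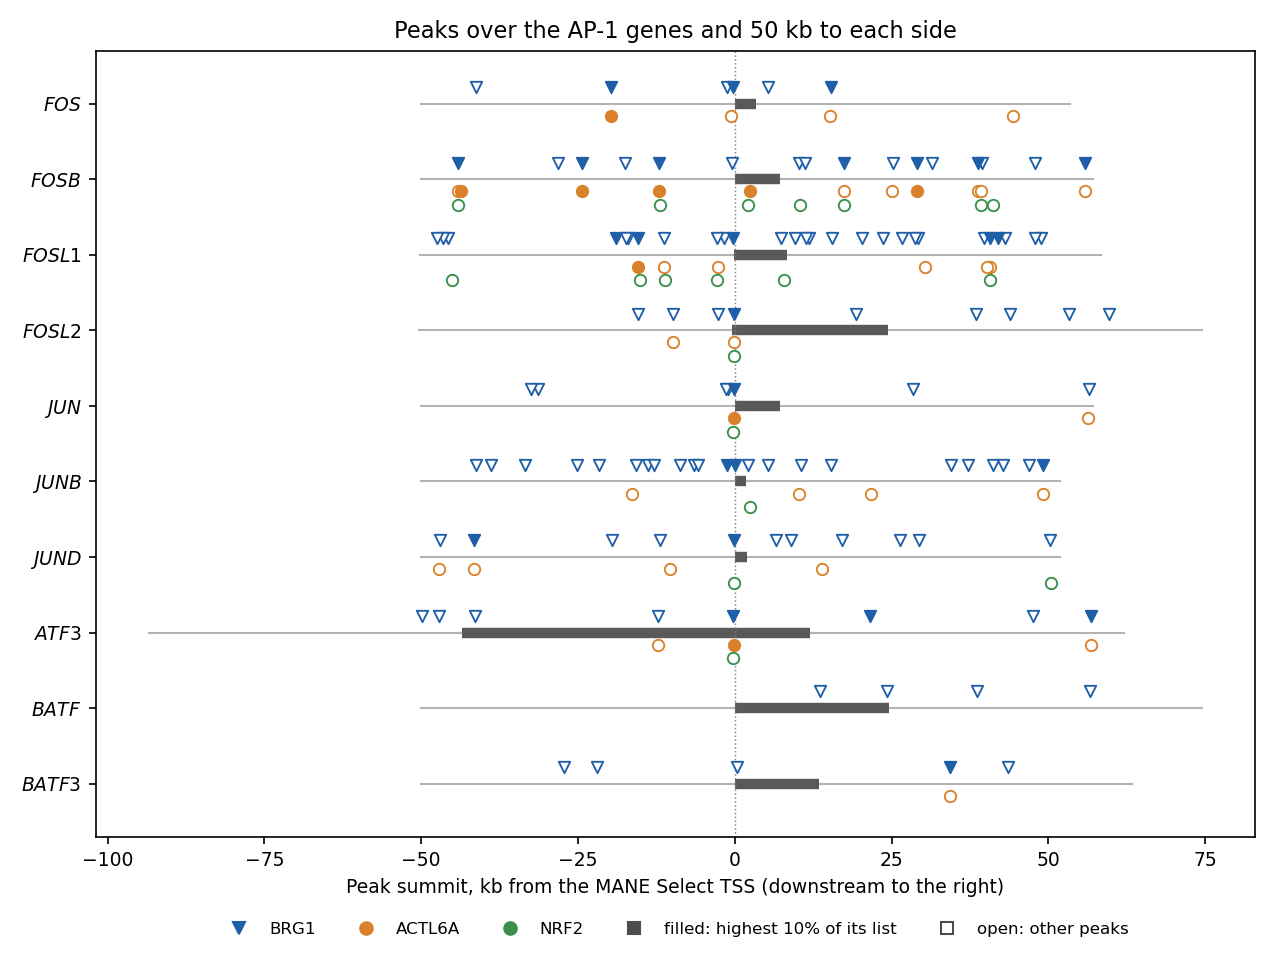
Summits of the 114 BRG1, 36 ACTL6A and 19 NRF2 peaks, in kb from the MANE Select TSS of each AP-1 gene in the direction of its transcription. Dark bars are the annotated genes, grey lines the windows, and filled symbols the peaks among the highest 10% of their list by -log10 q. Symbols crowd the windows of FOSB, FOSL1 and JUNB, and BATF has 4 BRG1 peaks and no other.

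Each peak was placed within its own list by its -log10 q, since the lists differ in depth and a value of one cannot be set against a value of another. Fragments under each summit were solved from the deposited fold enrichment and p-value and are given with an exact Poisson 95% interval, beside the number the caller expected there. Whether it took that number from a control library or from the DNA around the peak is not given in the sources used here. The total depth of the libraries is unknown from the lists, but a median peak held 10 fragments for BRG1, 6 for ACTL6A and 17 for NRF2. All intervals cover counting error only.

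A BRG1 peak lay at a TSS of 9 of the 10 members, against 63.5% of all protein-coding genes. ACTL6A had a peak there in 5 members (background 38.5%) and NRF2 in 5 (background 28.1%). In the IgG lists 0 members had one, against 0% and 0.152% of all genes. FOSB, FOSL2, JUN and ATF3, 4 of the 10, had peaks of all 3 antibodies at a TSS, against 22.1% of genes. Within the wider windows, 10 members had a BRG1 peak (background 90.9%), 9 an ACTL6A peak (85.3%), 7 an NRF2 peak (59.1%) and 0 a peak of either IgG list (0.0914% and 3.35%). With 10 genes, none of these counts differs from its background by more than 3 genes.

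**Figure D2:**
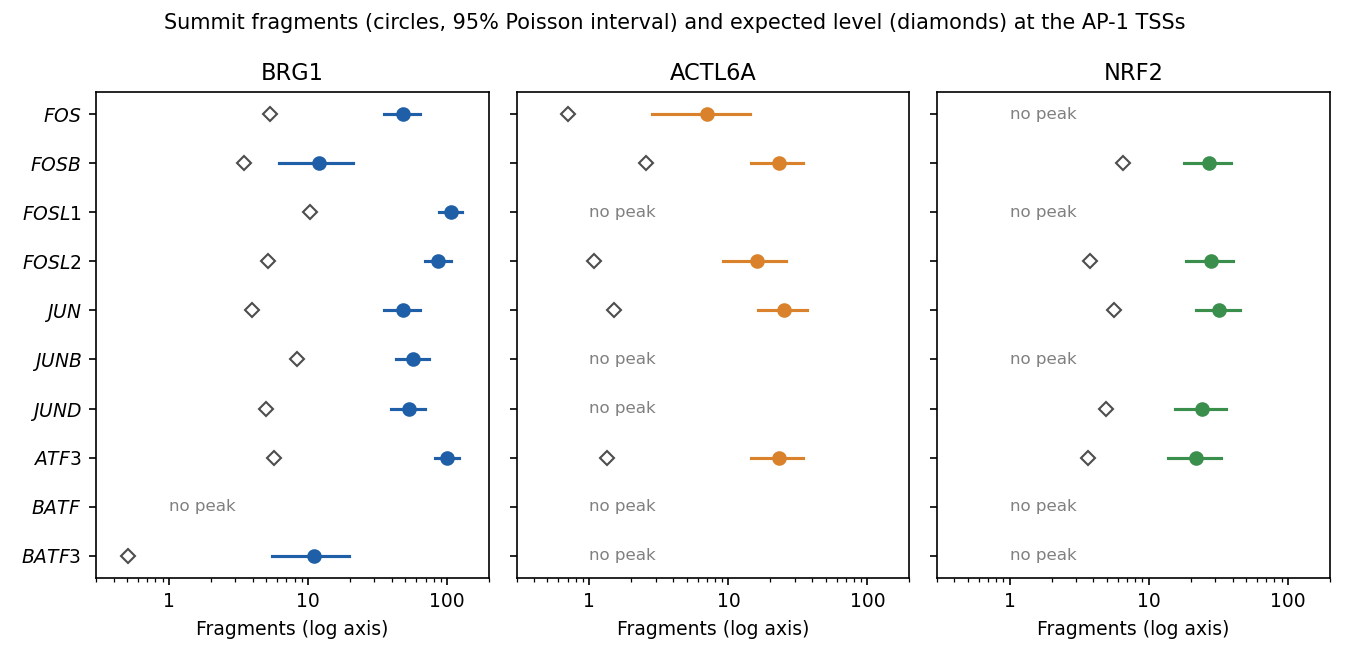
Fragments at the summit of the highest peak at a TSS of each AP-1 gene (circles, with exact Poisson 95% intervals) and the number expected there by the caller (diamonds), on a log axis, for the BRG1, ACTL6A and NRF2 lists. BRG1 circles range from 11 fragments at BATF3 to 106 at FOSL1, and "no peak" marks genes without a peak at a TSS in that list.

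Among the FOS family, FOS itself (ENSG00000170345, chr14:75278826-75282230, plus strand) had 2 BRG1 peaks at its TSS. The higher one had its summit 271 bp upstream, 34 bp from the nearest base of the CArG box, with 48 fragments (35.4 to 63.6) against 5.37 expected, and ranked 4433 of its list. The other lay 1298 bp upstream and ranked 8275. ACTL6A had a weak peak there, with 7 fragments (2.81 to 14.4) against 0.703 and rank 12237, and NRF2 had none in the whole window.

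The strongest peaks around FOS were away from the gene. A BRG1 peak 15.3 kb downstream, at the start of the long non-coding RNA LINC01220, held 59 fragments (44.9 to 76.1) against 4.00 and ranked 1481. Another 19.7 kb upstream, near the 5′ ends of 2 unnamed long non-coding transcripts, held 40 (28.6 to 54.5) against 1.87 and ranked 2425. ACTL6A had its best peak of all 10 windows at that upstream place, with 34 fragments (23.5 to 47.5) against 1.23 and rank 231, in the highest 0.966% of its list. Both places thus ranked above the FOS TSS in the BRG1 list and in the ACTL6A list.

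FOSB (ENSG00000125740, chr19:45467995-45475179, plus strand), which like FOS is induced by growth signals, had the weakest BRG1 peak at a TSS among the 9 members. It lay 504 bp upstream of the start with 12 fragments (6.20 to 21.0) against 3.44 expected, at rank 44191, where 98.7% of genes with a BRG1 peak at a TSS had one as high or higher. ACTL6A and NRF2 instead had peaks inside FOSB, 2469 and 2182 bp downstream of its main start and close to the first base of a shorter annotated transcript, 200 and 87 bp from it. They held 23 fragments (14.6 to 34.5) against 2.57 and 27 (17.8 to 39.3) against 6.51, and neither overlapped a BRG1 peak.

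Away from its TSS, FOSB had 4 distal BRG1 peaks among the highest 10% of the list, more than any other member. They lay 24.4 kb and 12.1 kb upstream, at ranks 794 and 938, and 17.4 kb and 55.9 kb downstream, at ranks 1250 and 2238, and all 4 overlapped an ACTL6A peak. The upstream ones lie under an annotated span of the neighbouring DNA repair gene ERCC1 that its MANE Select transcript does not cover. The peak 12.1 kb upstream, shown above with its AP-1 site 44 bp from the summit, held 74 BRG1 fragments (58.1 to 92.9) against 5.51. ACTL6A had 39 (27.7 to 53.3) against 2.42 at this place, rank 297, and NRF2 had 23 against 4.78, rank 3795. The peak 17.4 kb downstream, over the 3′ end of RTN2, was also shared by all 3 antibodies. Of the 16 BRG1 peaks in the FOSB window, 9 were at the TSS of other genes, the highest at VASP (rank 326) and ERCC1 (rank 584), and 9 overlapped an ACTL6A peak.

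FOSL1 (ENSG00000175592, chr11:65892049-65900573, minus strand), which encodes the FRA1 protein common in carcinoma cells, had 27 BRG1 peaks in its window, the most of the 10. At its TSS, BRG1 had 106 fragments (86.8 to 128) against 10.4 expected, with the summit 241 bp upstream of the main start and rank 548. Neither ACTL6A nor NRF2 had a peak there.

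The highest BRG1 peak of all 10 windows lay 15.4 kb upstream of FOSL1, between genes. It held 180 fragments (155 to 208) against 21.8 and ranked 164, in the highest 0.336% of the list. ACTL6A had 21 fragments (13.0 to 32.1) against 2.07 at this place, rank 2311, and NRF2 had 41 against 18.1, rank 7351. The BRG1 summit lay 26 bp from the combined AP-1 site and ARE core printed above, whereas the NRF2 peak ended short of that site. All 3 antibodies also shared the peaks 2.83 kb and 11.2 kb upstream, the latter with 2 AP-1 sites. These ranked 7525 and 26522 in the BRG1 list. The one 11.2 kb upstream was weak, with 41 BRG1 fragments against 16.2 and a fold enrichment of 2.45. The widest NRF2 peak of the members, 1819 bp, lay over the last exon of FOSL1 with 75 fragments against 20.3 and rank 930, and overlapped a BRG1 peak of rank 14233. The expected number at BRG1 peaks of this window had a median of 10.4, against 0.854 over the whole list. The lists do not show the copy number of the region, and the part of this higher background in the ranks, the 27 peaks and the density of peaks around FOSL1 was not tested. The fold enrichment of the peak 15.4 kb upstream was accordingly 7.95, whereas that of the ATF3 TSS, which ranked below it, was 15.2.

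FOSL2 (ENSG00000075426, chr2:28392448-28417317, plus strand), the gene of FRA2, also had a high-ranking BRG1 peak at its TSS, but its distal peaks ranked low. BRG1 had 86 fragments (68.8 to 106) against 5.17 at the start, rank 444. ACTL6A had 16 (9.15 to 26.0) against 1.09, rank 2526, and NRF2 had 28 (18.6 to 40.5) against 3.75, rank 1492, the highest-ranking NRF2 peak at a TSS of the 10 genes. Of its 8 distal BRG1 peaks the highest ranked 14024, 53.2 kb downstream of the start, and none held an AP-1 site within 100 bp of its summit. At the start, by contrast, the AP-1 site TGACTCA lay within 100 bp of the BRG1 and the ACTL6A summit, though not of the NRF2 summit.

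In the JUN family, JUN (ENSG00000177606, chr1:58776845-58784048, minus strand) was the member whose TSS ranked highest in the ACTL6A list. ACTL6A had 25 fragments (16.2 to 36.9) against 1.51, rank 847, with the summit 176 bp upstream. BRG1 had 48 (35.4 to 63.6) against 3.95 with its summit 184 bp upstream, rank 3077, and NRF2 had 32 (21.9 to 45.2) against 5.67, rank 1796. The 3 peaks overlap one another over the stretch printed above, which holds TGACATCA. The highest distal BRG1 peak was the one 56.5 kb downstream of the start, with 12 fragments against 0.490 and rank 13189, which ACTL6A shared with 5 fragments against 0.269. The distal BRG1 peaks 1.08, 1.38 and 31.4 kb upstream lay within 1 kb of starts of the non-coding RNA LINC01135.

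JUNB (ENSG00000171223, chr19:12791486-12793315, plus strand), whose protein can restrain JUN, had a BRG1 peak at its TSS with 57 fragments (43.2 to 73.9) against 8.29, rank 4636, and no ACTL6A or NRF2 peak there. A BRG1 peak 1.21 kb upstream was higher, with 65 (50.2 to 82.8) against 8.65 and rank 3194, and the highest distal one, in an intron of MAST1 49.2 kb downstream, had 55 (41.4 to 71.6) against 4.43 and rank 2241. Although 23 BRG1 peaks lay in the window, 3 overlapped an ACTL6A peak and 1 an NRF2 peak, 2.06 kb downstream of the start. None of the 14 distal BRG1 peaks held the AP-1 site within 100 bp of its summit.

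JUND (ENSG00000130522, chr19:18279694-18281622, minus strand), the JUN member made steadily rather than on induction, had BRG1 with 53 fragments (39.7 to 69.3) against 4.95, rank 2932, and NRF2 with 24 (15.4 to 35.7) against 4.90, rank 3474. Their summits lay 173 and 167 bp upstream, within the printed stretch that holds TGACGTCA and the ARE cores, and ACTL6A had no peak there. Its highest distal BRG1 peak, 47.1 kb upstream, ranked 7091, and the highest peak of its window was at the TSS of LSM4 (rank 671).

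ATF3 (ENSG00000162772, chr1:212565334-212620777, plus strand), a stress-induced gene whose protein often represses, had the highest BRG1 peak at a TSS of the 10 members. Its 100 fragments (81.4 to 122) against 5.65 expected ranked 251, within the highest 1.37% of genes with a BRG1 peak at a TSS. ACTL6A had 23 (14.6 to 34.5) against 1.33, rank 974, and NRF2 had 22 (13.8 to 33.3) against 3.63, rank 2885, all with summits 194 to 254 bp upstream of the main start. The distal BRG1 peaks of ATF3 carried the AP-1 site more often than those of any other member, in 4 of 7. One of them, 12.2 kb upstream of the main start and inside the gene's longer transcripts, is printed above, with the site 5 bp from its summit, 20 BRG1 fragments against 1.13 and an ACTL6A peak of 6 fragments against 0.374. The others lay 47.1 kb and 41.4 kb upstream and 21.5 kb downstream, at ranks 16190, 6060 and 4780.

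BATF and BATF3 are known mainly from lymphoid and dendritic cells, and their windows held the fewest BRG1 peaks, 4 and 5. BATF (ENSG00000156127, chr14:75522455-75546993, plus strand) was the member without a peak of any list at its TSS, and it had no ACTL6A or NRF2 peak in its window. Its highest BRG1 peak near the gene, in an intron 13.6 kb downstream of the start, held 8 fragments against 0.546 at rank 23234. At BATF3 (ENSG00000123685, chr1:212686417-212699840, minus strand) BRG1 had 11 fragments (5.49 to 19.7) against 0.504 in an intron 299 bp downstream of the start, rank 15025. The strongest peak of its window, shared with that of ATF3, was at the start of the non-coding RNA LINC02773, 34.3 kb downstream of the BATF3 start and 56.8 kb downstream of that of ATF3, with 38 BRG1 fragments (26.9 to 52.2) against 0.882, rank 1383, and an ACTL6A peak of 8 against 0.404. A missing peak says only that none was called at this depth.

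By density, the members had a median of 5.60 distal BRG1 peaks per 100 kb of window, from 2.41 at BATF to 13.7 at JUNB, whereas the median over all genes was 1.78 (quartiles 0.613 and 3.77). JUNB and FOSL1, with 13.7 and 12.0, stood near the end of the distribution, and 0.467% and 0.940% of all genes had a higher density. JUND had 6.87, FOSL2 6.41, FOSB and JUN 5.60 each, ATF3 4.50, FOS 3.87 and BATF3 3.53, and every member was above the median of all genes. The members also differed in chromosome and in the number of neighbouring genes. JUNB, JUND and FOSB lie on chromosome 19, where the median was 4.34, and FOSL1 lies on chromosome 11, where it was 2.56. JUNB had 8 other protein-coding genes in its window and FOSL1 had 10, and among genes with 5 or more others the median was 3.68. Of those genes, 1.37% were at or above JUNB and 2.64% at or above FOSL1. JUN had 0 other protein-coding genes in its window and FOSL2 had 1, and among genes with 4 or fewer others the median was 1.42. In that class 9.07% of genes were at or above JUN and 6.49% at or above FOSL2. At FOSB, 33.9% of the genes of chromosome 19 were at or above its value, and at JUND 21.6%. The part of gene density in the members' values was not tested further.

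Clusters were counted where at least 3 distal BRG1 peaks followed each other with gaps of at most 10 kb. FOSL1, FOSL2, JUNB and ATF3, 4 of the 10 members, had at least 1 in their windows, against 19.8% of all genes and 40.9% of the genes of chromosome 19. JUNB had 3, which 1.02% of genes reached, and FOSL2 had 2, which 5.07% reached.

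The cluster of FOSL1 was the longest, with 9 distal BRG1 peaks over 45.2 kb, from 29.3 kb downstream of the start to the rank 164 peak upstream. Of its peaks 3 overlapped an ACTL6A peak and 4 an NRF2 peak, and 6 BRG1 peaks at the TSS of FOSL1 and other genes lay between them. The clusters of JUNB had 4 peaks over 19.7 kb upstream, 6 peaks over 14.5 kb on both sides of the TSS, and 4 peaks over 15.3 kb downstream. The middle one, from 8.78 kb upstream to 5.37 kb downstream, held 22 to 65 fragments a peak, yet none of its 6 peaks overlapped an ACTL6A peak. In the clusters of FOSL2, of 3 peaks over 13.0 kb upstream and 4 over 21.4 kb downstream, the peaks held 3 to 18 fragments and none ranked above 14024. ATF3 had 3 peaks over 9.05 kb around its most upstream annotated start, 41.4 to 49.8 kb from the main one, with 9 to 22 fragments. Which members had a cluster depended on the gap and on the least number of peaks, and JUNB was the member that had one under every setting tried.

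Of the 70 distal BRG1 peaks, 11 were among the highest 10% of the list (15.7%, Wilson 95% interval 9.01% to 26.0%), whereas 5.06% of all distal BRG1 peaks were. These 11 lay around FOS, FOSB, FOSL1, JUNB, ATF3 and BATF3, so 6 of the 10 members had such a peak in the window, against 14.9% of all genes. BATF3 had it only through the peak at LINC02773 that is also in the ATF3 window, and that peak counted for both members. Among the 20 distal ACTL6A peaks 4 were that high in their list (20.0%, 8.07% to 41.6%), against 4.55% of all distal ACTL6A peaks, and they were the one upstream of FOS, the 2 upstream of FOSB and the one 15.4 kb upstream of FOSL1. Of the 9 distal NRF2 peaks 0 were that high (0%, up to 29.9%), against 13.1% of all distal NRF2 peaks. None of the 19 NRF2 peaks, at a TSS or distal, was (0%, up to 16.8%), against 9.99% of the whole list. Peaks of 1 window share their surroundings and are not independent, so these intervals are too narrow. Of the 11 high distal BRG1 peaks, 9 overlapped an ACTL6A peak (81.8%, 52.3% to 94.9%), and so did 73.2% of the 1700 distal BRG1 peaks of that height in the list. A start of a non-coding or other non-protein-coding transcript lay within 1 kb of 4 of the 11, against 28.9% of the 1700.

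BRG1 peaks in the windows overlapped an ACTL6A peak, by at least 1 bp, in 29 of 114 cases (25.4%, 18.3% to 34.1%), against 24.1% in the whole list, and an NRF2 peak in 17 (14.9%, 9.52% to 22.6%), against 13.3%. Seen from the smaller lists, 30 of the 36 ACTL6A peaks overlapped a BRG1 peak (83.3%, 68.1% to 92.1%), against 49.8% of all ACTL6A peaks. The difference lay among the distal peaks, of which 15 of 20 did (75.0%, 53.1% to 88.8%), against 33.5%, while at a TSS the shares were 93.8% and 87.1%. Of the 9 distal NRF2 peaks 8 overlapped a BRG1 peak (88.9%, 56.5% to 98.0%), against 34.6% of all distal NRF2 peaks. Of the 9, 4 came from FOSL1, 3 from FOSB and 1 each from JUNB and JUND. The 4 of FOSL1 had 9.57 to 20.3 fragments expected, against a median of 2.79 over the NRF2 list. The part of this higher background in the sharing was not tested. At a TSS other shares lay below those of the lists. There 8 of 10 NRF2 peaks overlapped a BRG1 peak (80.0%, 49.0% to 94.3%), against 94.9%. Of the 44 BRG1 peaks at a TSS, 31.8% overlapped an ACTL6A peak (20.0% to 46.6%), against 41.1%, and 20.5% an NRF2 peak (11.2% to 34.5%), against 32.1%. The share of the list lay inside the interval for both of these and just above it for the NRF2 peaks. Most of the 44 were at the TSS of other genes, with 13 such peaks around FOSL1, 9 around FOSB and 8 around JUNB. Their shares thus describe neighbouring genes more than the members.

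The AP-1 site was found within 100 bp of the summit in 14 of the 70 distal BRG1 peaks (20.0%, 12.3% to 30.8%). Over the whole list 16.9% of distal BRG1 summits had it, against 5.44% of stretches of the same length 1 kb to either side. The share of the list lies inside the interval of the members' peaks. Among the highest 10% of the list, 3 of the 11 distal BRG1 peaks of the members held the site (27.3%, 9.75% to 56.6%). The share was 38.1% among the 1700 distal BRG1 peaks of that height. At a TSS, mostly that of a neighbouring gene, the AP-1 site was found in 4 of 44 windows (9.09%, 3.59% to 21.2%). The share was 4.80% in the list and 4.50% in its flanks. Distal ACTL6A summits had it in 9.63% over the list (flanks 5.25%) and distal NRF2 summits in 5.76% (flanks 3.97%). The ARE core, found on either strand, lay in 8 of the 70 (11.4%, 5.91% to 21.0%), against 11.9% of distal BRG1 summits in the list. TGACNTCA lay in 1 (1.43%), against 4.46%, and TGACGTCA in none, which allows up to 5.20%. AP-1 sites lay in 4 distal peaks of ATF3, 3 each of FOSB and FOSL1, 1 each of JUN, JUND, BATF and BATF3, and in no distal peak of FOS, FOSL2 and JUNB.

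**Figure D3:**
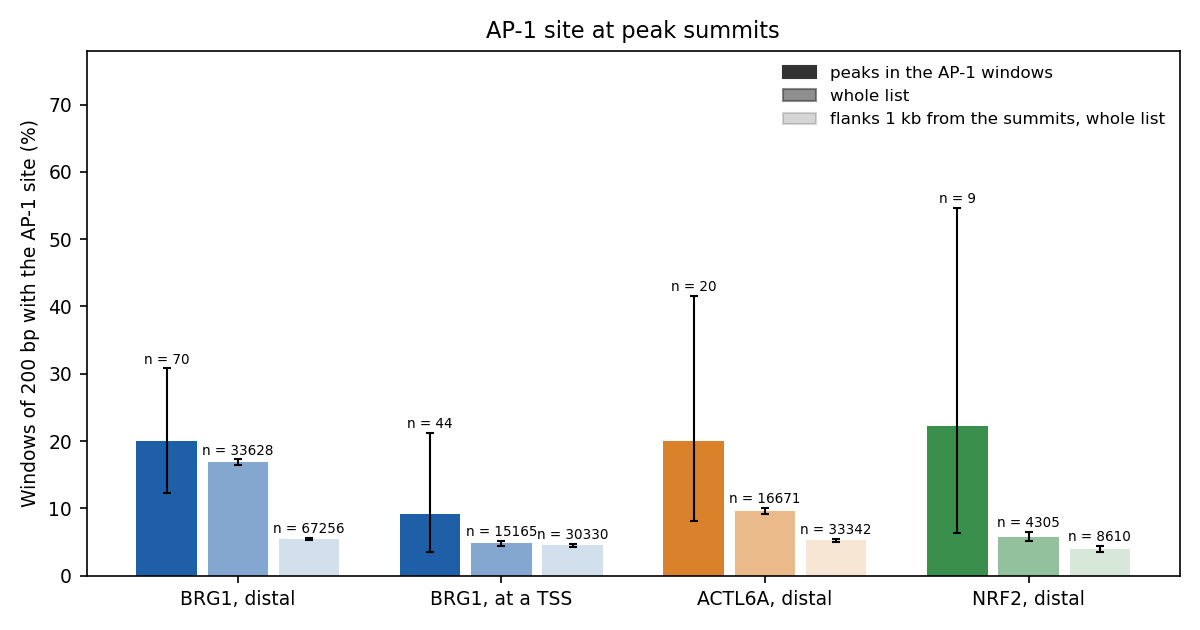
Percent of 200 bp windows around peak summits with TGANTCA, for peaks in the windows of the AP-1 genes, for the whole list and for flanks 1 kb from the summits, with Wilson 95% intervals and the number of windows. Distal BRG1 summits carry the site in 20.0% around the members and 16.9% in the list, against 5.44% in flanks, and the small numbers for ACTL6A and NRF2 leave wide intervals.

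Of the RefSeq promoters, 250 bp before the start, 6.57% of 35116 hold TGANTCA, 6.87% TGACNTCA, 1.65% TGACGTCA, 10.9% the ARE core and 1.16% a CArG box. Promoters were listed for 8 of the 10 members, with none for FOSL1 and BATF3. Neither TGANTCA nor a CArG box was in any of them, the CArG box of FOS being farther upstream. The AP-1 site at FOSL2 lies just past its RefSeq start and so outside the promoter searched. TGACNTCA was in those of JUN and JUND and in one of the pair listed for ATF3. Neither of that pair lies at the main start of ATF3, where BRG1, ACTL6A and NRF2 had their peaks. The promoter at that start was thus not among those searched. A match is a run of letters and not a shown binding site.

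Lists of related genes were counted in the same way. Over all genes, 63.5% had a BRG1 peak at a TSS, 38.5% an ACTL6A peak, 28.1% an NRF2 peak and 22.1% all of them. Of 13 other bZIP genes that pair with FOS or JUN or belong to their family, 12 had a BRG1 peak at a TSS, 6 an ACTL6A peak, 6 an NRF2 peak and 5 all of them. The highest BRG1 peaks were at ATF7, NFE2L1 and ATF2, with -log10 q of 64.8, 60.3 and 55.6, and MAF had none. Of 12 regulators upstream of AP-1, the MAP kinases, SRF, its ELK partners and CREB1, 11 had a BRG1 peak there, 6 an ACTL6A peak, 6 an NRF2 peak and 5 all of them. ELK1 and MAPK7 had the highest, with 50.8 and 49.7, and MAPK10 had none. Of 19 other immediate-early genes, 18 had a BRG1 peak there, 8 an ACTL6A peak, 10 an NRF2 peak and 7 all of them, with EGR1 highest at 55.3 and DUSP5 without one. On the same scale the values were 81.3 at ATF3, 67.6 at FOSL2 and 62.9 at FOSL1.

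Clusters of distal BRG1 peaks were found around 5 of the 13 bZIP genes, 1 of the 12 upstream regulators and 9 of the 19 immediate-early genes. Over all genes 19.8% had a cluster. The median density was 1.37, 2.73 and 3.84 distal BRG1 peaks per 100 kb, respectively, and 5.60 for the AP-1 genes. Among the immediate-early genes GADD45B had 13.7, the value of JUNB, and NR4A1 had 3 clusters as JUNB did. These lists are small and were compared without a test.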

How the data were processed

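CUT&Tag libraries of SNU638 cells were used as the peak lists the authors deposited, 1 each for BRG1, ACTL6A and NRF2 and 2 for IgG, 5 in all. Per the study's methods and the labels' processing notes, the authors trimmed reads with fastp 0.23.0, aligned them to hg38 with BWA and called peaks with MACS2 by q-value, each library on its own. The control given to the caller is not given in the sources used here, so the IgG lists were compared as separate lists. In the deposited lists the score is 10 times the -log10 q-value, the fold enrichment is a ratio with a pseudocount of 1, and MACS2 also gave the -log10 of each p and q. The study states the reads sequenced per antibody, which were not used here. The lists hold no totals, so fragments at the summits of called peaks are given instead, and these are not a measure of library depth.

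From these, whole fragments at each summit were solved from the fold enrichment and the Poisson p to within 0.001 of its -log10, which succeeded for 99.1% to 100% of peaks. Genes and TSSs came from GENCODE release 44, sequences from GRCh38 and RefSeq promoters. Peaks were ranked by -log10 q within a list. Intervals were exact Poisson for fragments and Wilson 95% for shares. The routines were tested on simulated data (SciPy 1.17.1 and NumPy 2.4.6 under Python 3.11.15, with sequences read by pysam 0.24.0). All 10 members were named, with the peaks at their TSSs, their highest distal BRG1 peak and each cluster, and other genes only where a peak in a window was at their TSS or for the ends of each related list. GADD45B and NR4A1 were named after their values were seen, as was each further distal peak. The members and the related lists were chosen with earlier results of these data known. With 1 library per antibody no test was made. Stricter q-values, other windows, distances, gaps and overlaps, and peaks shared with IgG left out, were tried as alternatives.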

Additional observations from a re-analysis of the deposited data

How the results depend on the processing

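Of 88 values recomputed under other settings for the 15 counts and shares, 64 stayed within 1.5 times the count or within the 95% interval of the share, and 24 did not. Of the 64, 24 left out peaks shared with IgG and could not change, since no IgG peak lay in any window, 18 were counts of IgG peaks at 0, and 22 were others. With -log10 q of at least 5, the windows held 72 BRG1, 18 ACTL6A and 12 NRF2 peaks and 42 distal BRG1 peaks, and 2 members had a cluster, FOSL1 and JUNB. With the highest 5000 peaks of each list, 25, 16 and 12 peaks were left. Windows of 10 kb held 41, 9 and 10 peaks and 24 distal BRG1 peaks, and windows of 100 kb held 182, 66 and 32 and 113. With TSSs widened to 3 kb, 45 distal BRG1 peaks were left and 2 members had a cluster, FOSL2 and JUNB. A gap of at most 5 kb left 1 member with a cluster, JUNB, and one of 25 kb gave 8. With at least 5 peaks to a cluster 2 were left, FOSL1 and JUNB. Where 50% of each peak had to be covered, 14.9% of BRG1 peaks were shared with ACTL6A and 7.89% with NRF2. TGACGTCA in place of the AP-1 site was found in 0%. The counts of members with a peak at a TSS stayed within 1.5 times under every setting tried. Shares over all genes were computed at the main setting only. The member counts under other settings, of clusters and of peaks at a TSS, therefore have no background to be read against. No paired analysis was possible because no result came from a test and the antibodies had no replicates to pair. Depth limits what can be said of missing peaks, the smallest peak having held 3 fragments in the BRG1 and ACTL6A lists and 8 in the NRF2 list.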
